A study of Mus musculus with 18 samples.

Results

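Sebaceous glands fill their cells with lipid and release them whole as sebum, a mix of triglycerides, wax esters, sterol esters and free fatty acids that coats hair and skin. The genes described here are the 40 of 52636 rows of the deposited count table whose gene name is on a list of sebaceous and fatty acid synthesis genes. They fall into 9 roles, from the enzymes that build fatty acids to sebocyte regulators and markers. Fatty acids are built from acetyl-CoA, lengthened, desaturated, activated with coenzyme A and then joined to glycerol, fatty alcohols or cholesterol, and the nuclear receptor PPARγ and sterol-regulated factors are known to drive many of these genes in sebocytes.

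The libraries came from epithelial skin cells of C57BL/6 mice in which Zfp36, the gene for the mRNA-destabilizing protein tristetraprolin (TTP), carried loxP sites on both alleles. Mice without Cre were the fl/fl controls, and mice in which the keratin 14 promoter drove Cre, and so deleted Zfp36 in the keratin 14 lineage only, were ΔK14. Skin was mock treated or painted with the carcinogen DMBA and then repeatedly with the tumor promoter TPA, which gave treated skin next to the tumors and the tumors (papillomas) themselves. Cells were sorted as EpCAM+ CD45- CD140a- CD31-, although the labels name whole skin as the source. Each of the 6 combinations of genotype and stage had 3 libraries, apart from ΔK14 mock skin, where the columns of replicates 2 and 3 held identical values and were counted as 1 library, leaving 17 libraries of 18. The labels number the replicates without saying whether each was a separate mouse, so p-values measure the spread between these libraries.

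Total counts ran from 2808550 to 9617985 per library. Zfp36 itself separated the genotypes in every library, with 152 to 716 CPM in the 9 fl/fl libraries and 10.1 to 38.6 CPM in the 8 ΔK14 libraries. CPM are counts relative to library size, as edgeR computes them with sizes scaled by trimmed means (TMM), and 1 count was worth 0.0967 to 0.502 CPM. Some libraries stood apart from the others of their group. Fl/fl tumor replicate 1, which had the lowest total and 19219 genes with a count against 26710 and 23984 in the other fl/fl tumors, kept a control level of Zfp36 (231 CPM) but had low levels of the sebaceous genes that replicates 2 and 3 held. Over the 37 members that reached 1 CPM in a tumor library, its level on the log2(CPM + 1) scale lay nearer to the mean of the ΔK14 tumors than to that of fl/fl replicates 2 and 3 in 35, against 66.9% of the 19935 genes that reached this level. In mock skin, replicate 1 of both genotypes carried hair follicle keratins that were low in the other mock libraries. Krt71, for example, was at 574 and 471 CPM there, against 0.387 to 1.44 CPM in the others. Results are therefore given with and without these libraries where they decide them. In these bulk libraries, fewer cells of a type and less RNA per cell cannot be told apart.

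**Figure D1:**
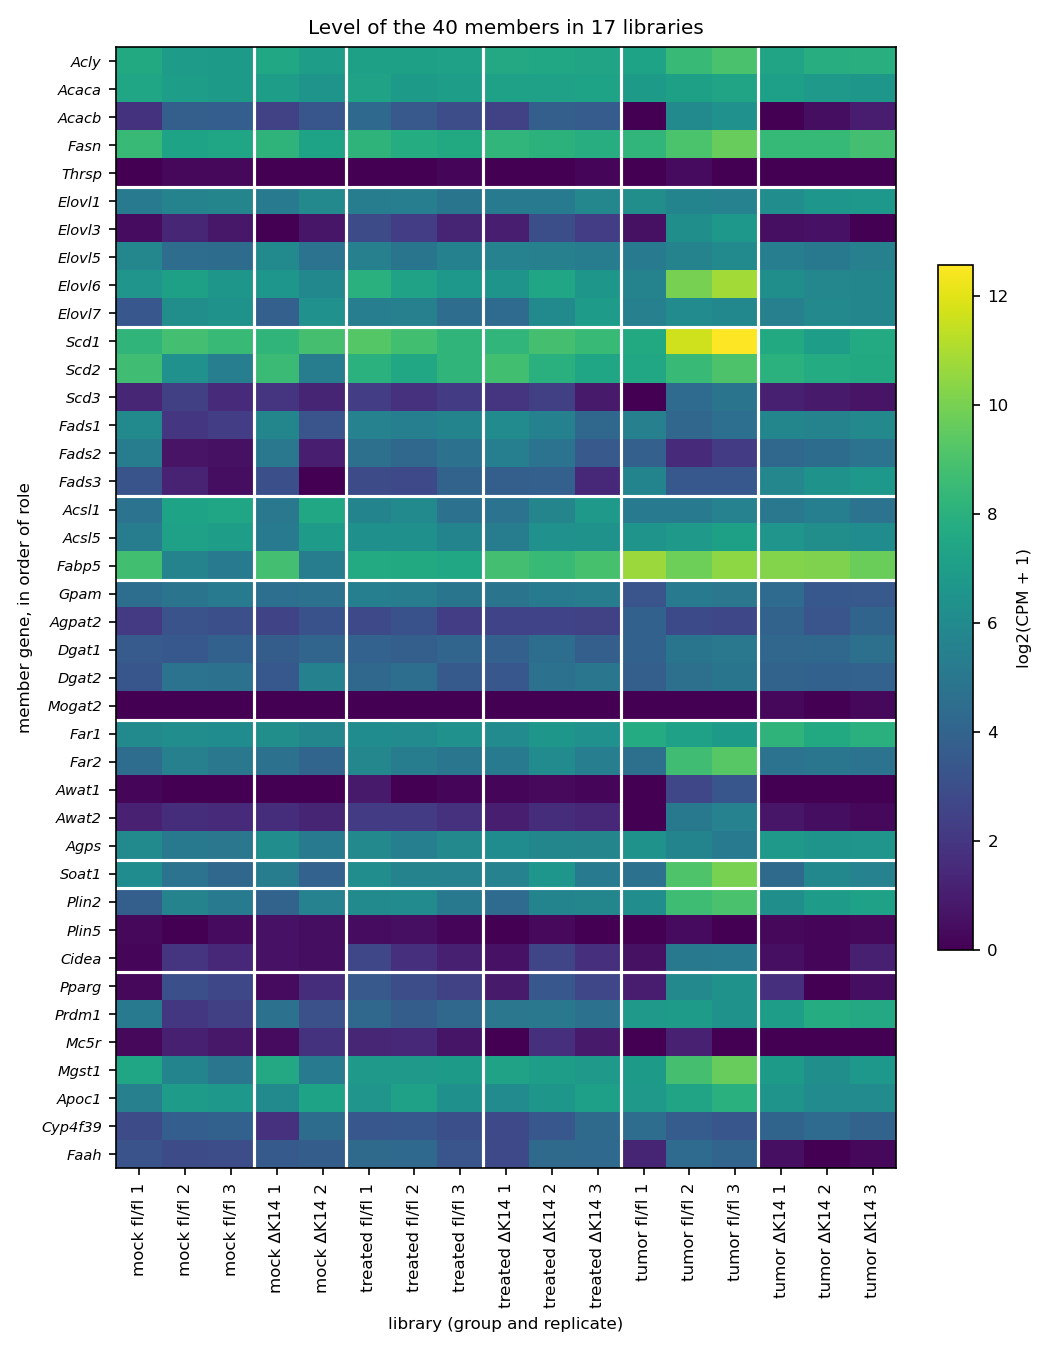
Heat map of log2(CPM + 1) for the 40 members (rows, in order of role) in the 17 libraries (columns, by group and replicate), with white lines between groups and roles. Fl/fl tumor replicates 2 and 3 hold the brightest cells, with Scd1 at 3209.7 and 6079 CPM, while fl/fl tumor replicate 1 resembles the 3 ΔK14 tumors in color.

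The heat map of all members shows the main pattern. Among the tumors, 10 of 12 sebocyte markers were highest in fl/fl replicates 2 and 3, the exceptions being Cyp4f39, which was lowest there, and Mc5r, which was at 0 in every tumor but fl/fl replicate 2. The summed level of 12 sebocyte markers (Scd1, Scd3, Awat1, Awat2, Elovl3, Mc5r, Cidea, Pparg, Mgst1, Apoc1, Far2 and Cyp4f39) was 465, 4499.9 and 8059.9 CPM in the fl/fl tumors and 447, 321 and 419.7 CPM in the ΔK14 tumors. It ranged from 538 to 904 CPM in mock and treated skin of both genotypes. Scd1 carried much of this sum. Without it the sum was 269, 1290.2 and 1981 CPM in fl/fl tumors 1, 2 and 3, 249.8, 192 and 213 CPM in the ΔK14 tumors and 191 to 332 CPM in mock and treated skin. Fl/fl tumor replicates 2 and 3 lay above all other libraries with and without Scd1, while the ΔK14 tumors lay below all mock and treated libraries only with it.

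TTP binds AU-rich elements in 3′ untranslated regions, whose core is the heptamer TATTTAT. For each gene the 3′ untranslated region with the most bases was searched (GENCODE M21, GRCm38), and 10 of the 40 members held this heptamer on the sense strand, 25%, against 27.4% of 21153 genes. The median length of this region was 1431 bases in the members and 1084 bases over all genes. Elovl6 was the only member with the 9-base form, in which a further T stands on each side of the heptamer, and 7.58% of all genes held it. Prdm1 had the most heptamers, with 4, Elovl6, Far1 and Agps had 3 each, Elovl3 had 2, and Acaca, Fasn, Elovl5, Dgat2 and Soat1 had 1 each. One site of each of 6 members that the results turn on is shown from 5′ to 3′, with the heptamer, or for Elovl6 the 9-base form, in capitals.
Prdm1: gaatgctgtaTATTTATgaacctattt
Elovl6: actatcattaTTATTTATTtattgtattt
Elovl3: aaaatggagtTATTTATatttatattt
Far1: ggattcattaTATTTATcctctcctcc
Soat1: tttccctgtgTATTTATtctctcttta
Fasn: taaattctcaTATTTATtgcattgctg
These are matches of letters, and binding was not measured here. The members that carry the heptamer include Prdm1, which was highest in ΔK14 tumors, and genes that were highest in fl/fl tumor replicates 2 and 3 (Elovl6, Elovl3, Soat1).

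RefSeq promoter windows (GRCm38.p6, 250 bases before to 50 after the start) were found for 29 of the 40 members, in 37 windows, and were searched on both strands. The CCAAT box was in 21 of the 37 windows (56.8%) and in 37.4% of all 32851 windows. The sterol response core TCACNCCAC was in 1 member window, of Acsl1 (2.70% against 1.24% of all windows). The E-box CACGTG was in 2, of Elovl5 and Plin2 (5.41% against 7.15%). A pair of the half-sites AGGTCA with 1 base between them, as PPARγ with its partner binds, was in none of the member windows and in 0.0400% of all windows. Windows of 3 members with matches are shown from 5′ to 3′, with the CCAAT box, in either orientation, and the E-box in capitals. Their genes passed the test between tumor and treated skin, as did Far2 and Mgst1, whose windows hold none of these motifs. The windows shown are Fasn at chr11:120824498-120824797 on the minus strand, Far1 at chr7:113513584-113513883 on the plus strand and Plin2 at chr4:86670010-86670309 on the minus strand.
Fasn: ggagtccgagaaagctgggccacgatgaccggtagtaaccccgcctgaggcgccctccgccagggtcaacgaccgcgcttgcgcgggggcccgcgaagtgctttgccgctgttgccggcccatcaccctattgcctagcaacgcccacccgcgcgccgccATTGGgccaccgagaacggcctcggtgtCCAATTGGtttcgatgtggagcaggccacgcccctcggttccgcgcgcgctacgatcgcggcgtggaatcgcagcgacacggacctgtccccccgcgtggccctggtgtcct
Far1: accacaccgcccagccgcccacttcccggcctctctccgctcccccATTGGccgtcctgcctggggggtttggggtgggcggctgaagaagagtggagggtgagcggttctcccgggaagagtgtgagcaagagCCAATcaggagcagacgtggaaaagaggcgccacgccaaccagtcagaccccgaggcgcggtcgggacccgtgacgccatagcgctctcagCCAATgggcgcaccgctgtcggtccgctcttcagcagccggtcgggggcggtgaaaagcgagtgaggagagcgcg
Plin2: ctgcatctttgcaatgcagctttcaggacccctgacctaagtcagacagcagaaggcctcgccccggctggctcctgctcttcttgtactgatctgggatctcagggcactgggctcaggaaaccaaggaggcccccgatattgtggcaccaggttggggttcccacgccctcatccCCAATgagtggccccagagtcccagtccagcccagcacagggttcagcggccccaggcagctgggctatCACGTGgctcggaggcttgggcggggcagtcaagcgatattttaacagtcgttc
Fasn and Far1 each hold 3 CCAAT boxes, 2 of which overlap in Fasn, and Plin2 holds 1 CCAAT box and the E-box. A match is a description of these letters and says nothing of which factor was bound.

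In the comparison of genotypes in tumors, 29 of the 40 members passed the filter on low counts, and none was called (edgeR quasi-likelihood test, Benjamini-Hochberg adjusted p below 0.05 and a change over 2-fold). Of the 14067 genes tested, 0.0213% were called higher and 0.00711% lower in ΔK14. At an unadjusted p below 0.05 there were 15 of the 29 members, and 1975 of the 14067 genes. DESeq2 called 9 members lower in ΔK14 (Elovl3, Elovl6, Scd1, Far2, Awat2, Cidea, Mgst1, Apoc1 and Faah), where it called 1.42% of all genes lower. The other 11 members, among them Elovl3, Awat2, Cidea, Scd3, Acacb and Faah, did not pass that filter, which asks for the count minimum in 3 libraries. Of the 29 tested members 9 had a positive and 20 a negative difference, with a median log2 fold change of -0.52 against -0.02 over all genes tested. All 3 ΔK14 tumors lay above all 3 fl/fl tumors for 5 tested members (Fads1, Fads2, Fads3, Agps and Prdm1) and for 13.6% of genes. The ΔK14 tumors lay below all fl/fl tumors for 2 (Mgst1 and Apoc1) and for 4.23% of genes.

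Without fl/fl tumor replicate 1, which was one of the planned left-out libraries, 36 members were tested, 18 were called lower and 5 higher in ΔK14 tumors. In that fit 9.58% of 15463 genes were called lower and 7.32% higher. The filter then asked for 2 libraries, so members that are high in the 2 remaining fl/fl tumors passed through the group in which they are high. The library left out is one already known to differ, so these calls and fold changes are given as a description, with no p, and support nothing by themselves. All 3 ΔK14 tumors lay below both remaining fl/fl tumors for 24 of the 36 tested members (22.9% of genes) and above both for 9 (31.3% of genes). The plot of fold changes between ΔK14 and fl/fl tumors sets both fits side by side.

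**Figure D2:**
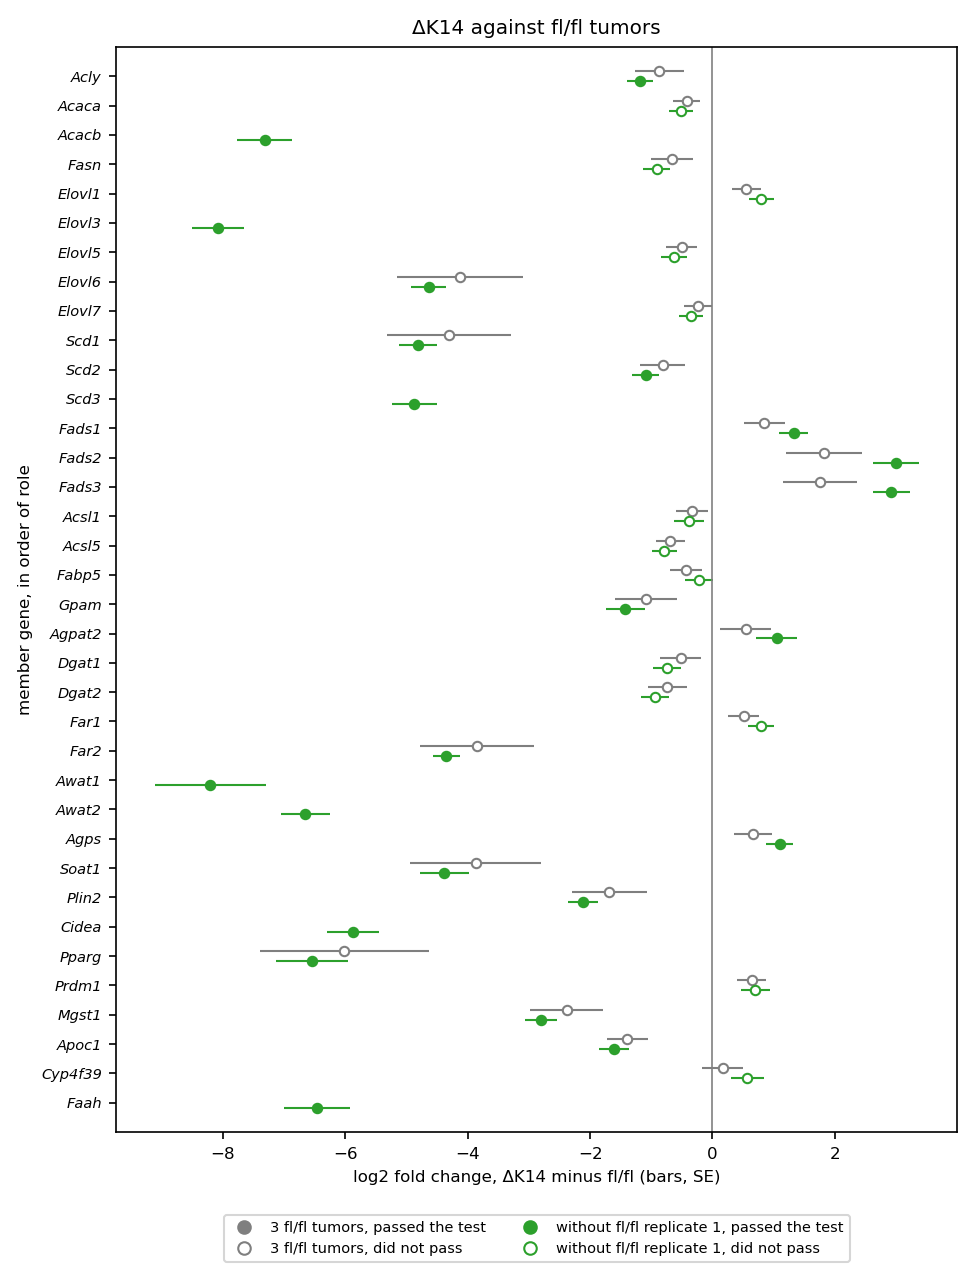
Fitted log2 fold change of ΔK14 minus fl/fl tumors for each tested member, with bars for the SE: gray with all 3 fl/fl tumors (29 members, none called), green without fl/fl tumor replicate 1 (36 members, 23 called). Filled circles passed the test, and the green circles of Elovl3, Awat1 and Acacb lie furthest to the left.

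The enzymes of de novo synthesis carry citrate to palmitate. Fasn, fatty acid synthase, makes palmitate from acetyl-CoA and malonyl-CoA. Fasn stood at 307, 521 and 798 CPM in fl/fl tumor replicates 1, 2 and 3 and at 341, 346 and 450.1 CPM in the ΔK14 tumors. Fasn in skin without tumors was at 349, 155 and 166 CPM in fl/fl mock, 288 and 154 CPM in ΔK14 mock, 284, 219.7 and 200.4 CPM in fl/fl treated and 309.7, 270.2 and 226 CPM in ΔK14 treated libraries. All 3 fl/fl tumors lay above all 3 treated fl/fl libraries, and the ΔK14 tumors lay above the ΔK14 treated libraries as well. Fasn rose from treated skin to tumor in fl/fl, with a log2 fold change of 1.19 (SE 0.35, adjusted p = 0.0431), while in ΔK14 the value was 0.40 (SE 0.20, adjusted p = 0.151). Acacb, the acetyl-CoA carboxylase isoform at mitochondria whose product restrains fatty acid oxidation, had another pattern. Acacb stood at 0, 61.8 and 81.3 CPM in fl/fl tumor replicates 1, 2 and 3 and at 0, 0.363 and 0.9499 CPM in the ΔK14 tumors. Acacb in skin without tumors was at 2.55, 12.96 and 12.7 CPM in fl/fl mock, 4.602 and 9.37 CPM in ΔK14 mock, 18.4, 10.5 and 6.799 CPM in fl/fl treated and 4.67, 13.1 and 11.5 CPM in ΔK14 treated libraries. It was at 0 in fl/fl tumor replicate 1 and near 0 in the ΔK14 tumors, which lay below all libraries of skin without tumors. Acacb fell from treated skin to tumor in ΔK14, with a log2 fold change of -4.47 (SE 0.71, adjusted p = 0.00234), and against ΔK14 mock skin with a log2 fold change of -3.94 (SE 0.81, adjusted p = 0.0277). Acly, which makes cytosolic acetyl-CoA from citrate, had 155, 366 and 505 CPM in the fl/fl tumors and 161, 226 and 235 CPM in the ΔK14 tumors, and its log2 fold change from fl/fl treated skin was 1.24 (SE 0.39, adjusted p = 0.0503), short of the threshold. Acaca, the cytosolic carboxylase, ranged from 88.7 to 172 CPM over all 17 libraries, and no comparison called it. Thrsp, a lipogenesis-linked protein, was at or under 0.305 CPM in every library and was never tested.

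Elongases add 2-carbon units. Elovl6, which extends palmitate to stearate, was among the members that differed most between tumor libraries. Elovl6 stood at 48.2, 1022 and 1825 CPM in fl/fl tumor replicates 1, 2 and 3 and at 76.04, 55.9 and 52.8 CPM in the ΔK14 tumors. Elovl6 in skin without tumors was at 94.6, 143 and 98.2 CPM in fl/fl mock, 96.9 and 56.6 CPM in ΔK14 mock, 247, 149.6 and 103 CPM in fl/fl treated and 89.7, 170.1 and 101 CPM in ΔK14 treated libraries. Fl/fl tumor replicates 2 and 3 exceeded every other library, and fl/fl tumor replicate 1 lay below all ΔK14 tumors. Its log2 fold change between ΔK14 and fl/fl tumors was -4.12 (SE 1.03, adjusted p = 0.209), and -4.64 (SE 0.29) without fl/fl replicate 1. From treated skin to tumor Elovl6 fell in ΔK14 by 1.07 on the log2 scale (SE 0.30, adjusted p = 0.0216), while the fl/fl value of 2.52 (SE 1.0, adjusted p = 0.0992) did not pass. Elovl3, an elongase of saturated and monounsaturated very long chains known from sebocytes, was almost confined to fl/fl tumor replicates 2 and 3. Elovl3 stood at 0.502, 76.2 and 102 CPM in fl/fl tumor replicates 1, 2 and 3 and at 0.447, 0.545 and 0 CPM in the ΔK14 tumors. Elovl3 in skin without tumors was at 0.333, 1.57 and 0.774 CPM in fl/fl mock, 0 and 0.721 CPM in ΔK14 mock, 6.41, 3.95 and 1.44 CPM in fl/fl treated and 1.08, 7.18 and 3.89 CPM in ΔK14 treated libraries. It rose from treated skin to tumor in fl/fl, with a log2 fold change of 3.90 (SE 1.16, adjusted p = 0.0428), although replicate 1 lay below all 3 treated libraries. Elovl1, an elongase of very long chains with broad expression, ran the other way in tumors. Elovl1 stood at 72.2, 49.2 and 46.9 CPM in fl/fl tumor replicates 1, 2 and 3 and at 70.4, 96.6 and 103 CPM in the ΔK14 tumors. Elovl1 in skin without tumors was at 34.1, 48.5 and 52.2 CPM in fl/fl mock, 33.6 and 60.2 CPM in ΔK14 mock, 39.5, 39.9 and 28.6 CPM in fl/fl treated and 34.6, 34.1 and 55.96 CPM in ΔK14 treated libraries. It rose from treated skin to tumor in ΔK14 (log2 fold change 1.03, SE 0.23, adjusted p = 0.0101) and had 0.60 (SE 0.23, adjusted p = 0.0941) in fl/fl. Elovl5, an elongase of polyunsaturated fatty acids, had 37.1 to 62.6 CPM in fl/fl and 32.5 to 42.7 CPM in ΔK14 tumors, and Elovl7 had 44.2 to 65.4 and 42.9 to 60.4 CPM. Neither was called in any of the 10 comparisons with all libraries.

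The desaturases split into 2 groups with opposite levels across the tumors. Scd1, the stearoyl-CoA desaturase whose loss in mice shrinks the sebaceous glands, lies with its paralogs Scd2 and Scd3 within chr19:44203269-44407879 (GENCODE M21, GRCm38), and reads that fit more than 1 of these close copies may have been split or dropped in counting. Scd1 stood at 196, 3209.7 and 6079 CPM in fl/fl tumor replicates 1, 2 and 3 and at 197, 129 and 207 CPM in the ΔK14 tumors. Scd1 in skin without tumors was at 296, 454 and 352 CPM in fl/fl mock, 296 and 469 CPM in ΔK14 mock, 608, 431 and 293 CPM in fl/fl treated and 311, 458 and 367 CPM in ΔK14 treated libraries. Both fl/fl tumor replicates 2 and 3 exceeded all other libraries, and the 3 ΔK14 tumors lay below every library of mock and treated skin. Scd1 had a log2 fold change between ΔK14 and fl/fl tumors of -4.31 (SE 1.01, adjusted p = 0.193), and of -4.82 (SE 0.31) without fl/fl replicate 1. It fell from treated skin to tumor in ΔK14 by 1.19 on the log2 scale (SE 0.25, adjusted p = 0.00703), against 2.82 (SE 0.97, adjusted p = 0.0677) in fl/fl. Scd3, the isoform known from sebocytes, was low and had a like pattern. Scd3 stood at 0, 20.3 and 27.9 CPM in fl/fl tumor replicates 1, 2 and 3 and at 1.12, 0.908 and 0.5699 CPM in the ΔK14 tumors. Scd3 in skin without tumors was at 1.55, 4.12 and 1.93 CPM in fl/fl mock, 2.71 and 1.44 CPM in ΔK14 mock, 3.801, 2.41 and 3.66 CPM in fl/fl treated and 2.69, 4.18 and 0.845 CPM in ΔK14 treated libraries. Replicates 2 and 3 of the fl/fl tumors were the only libraries above the range of mock and treated skin. Scd2 had 181, 354 and 529 CPM in the fl/fl tumors and 259, 212 and 198 CPM in the ΔK14 tumors, and without fl/fl replicate 1 its log2 fold change was -1.09 (SE 0.22).

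Fads1 and Fads2, the delta-5 and delta-6 desaturases of polyunsaturated fatty acids, and Fads3 lie next to each other within chr19:10041569-10196877. Each of the 3 was lower in every fl/fl tumor than in any ΔK14 tumor, as were 13.6% of all genes tested. Fads1 stood at 43.1, 16.8 and 23.3 CPM in fl/fl tumor replicates 1, 2 and 3 and at 53.2, 47.6 and 59.5 CPM in the ΔK14 tumors. Fads1 in skin without tumors was at 64.4, 2.95 and 3.87 CPM in fl/fl mock, 53.3 and 9.01 CPM in ΔK14 mock, 46.2, 42.1 and 49.9 CPM in fl/fl treated and 65.7, 45.04 and 17.8 CPM in ΔK14 treated libraries. Every ΔK14 tumor lay above every fl/fl tumor, and the log2 fold change was 0.85 (SE 0.33, adjusted p = 0.322). Fads2 stood at 13.5, 1.83 and 3.61 CPM in fl/fl tumor replicates 1, 2 and 3 and at 18.1, 21.1 and 26.4 CPM in the ΔK14 tumors. Fads2 in skin without tumors was at 38.6, 0.589 and 0.483 CPM in fl/fl mock, 31.4 and 1.08 CPM in ΔK14 mock, 23.6, 17.5 and 25.2 CPM in fl/fl treated and 42.7, 27.02 and 10.3 CPM in ΔK14 treated libraries. Its groups did not overlap either in tumors, with a log2 fold change of 1.83 (SE 0.62, adjusted p = 0.265). Fads2 fell from treated skin to tumor in fl/fl by 2.03 on the log2 scale (SE 0.63, adjusted p = 0.0494). This call was lost in 7 of 11 alternatives, among them RLE scaling (relative log expression), in which its adjusted p was 0.0522. Fads3 stood at 49.7, 10.1 and 9.83 CPM in fl/fl tumor replicates 1, 2 and 3 and at 54.8, 88.2 and 103 CPM in the ΔK14 tumors. Fads3 in skin without tumors was at 8.55, 1.37 and 0.387 CPM in fl/fl mock, 7.31 and 0 CPM in ΔK14 mock, 6.52, 5.92 and 14.9 CPM in fl/fl treated and 12.9, 13.7 and 1.69 CPM in ΔK14 treated libraries. Fads3 rose from treated skin to tumor in ΔK14, with a log2 fold change of 2.98 (SE 0.59, adjusted p = 0.00577), and against ΔK14 mock skin with 4.29 (SE 0.98, adjusted p = 0.0355). Between tumors its log2 fold change was 1.76 (SE 0.60, adjusted p = 0.266), and without fl/fl replicate 1 all 3 genes were called higher in ΔK14: 1.33, 3.00 and 2.92 in log2 fold change. Fads1 and Fads2 also separated the mock libraries: replicate 1 of each genotype held 38.6 and 31.4 CPM of Fads2, and the other mock libraries at most 1.08 CPM. These replicate 1 libraries are the ones with hair follicle keratins such as Krt71, whose part in these values was not tested.

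**Figure D3:**
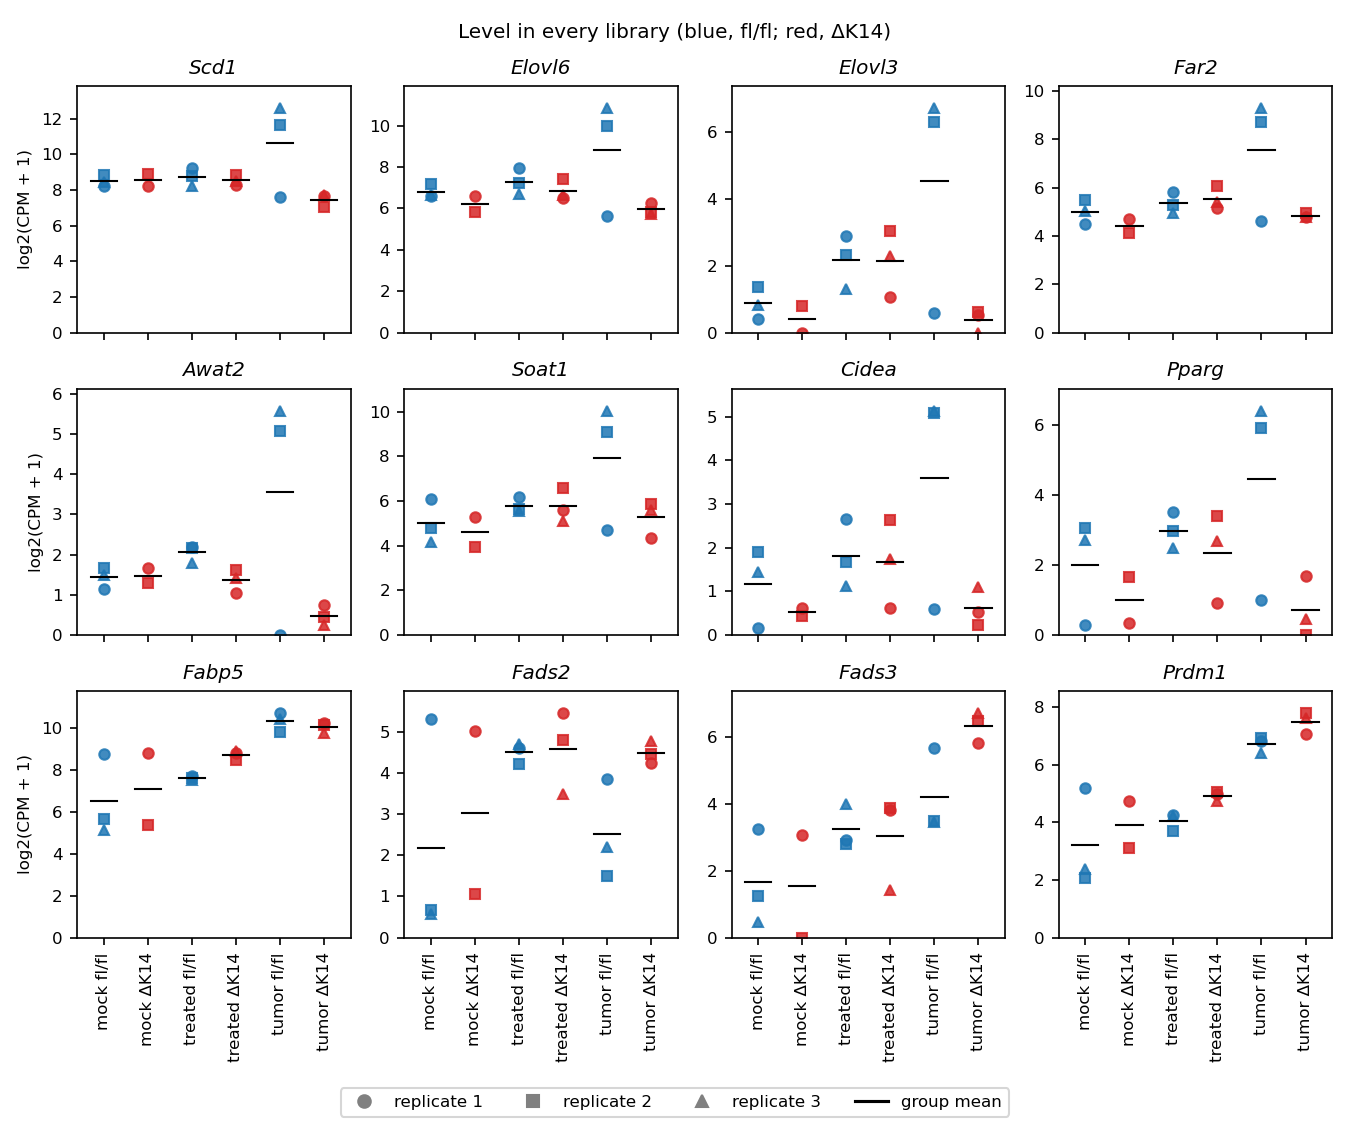
Level of 12 members in every library, as log2(CPM + 1), by group on the x axis (blue, fl/fl; red, ΔK14; circle, square and triangle for replicates 1, 2 and 3; black line, group mean). In Scd1, Elovl6, Elovl3, Far2, Awat2, Soat1, Cidea and Pparg the fl/fl tumor replicate 1 circle lies with the ΔK14 tumors, and in Fads2 and Fads3 it lies between them and the other fl/fl tumors.

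Among the genes of fatty acid activation and binding, Fabp5, the epidermal fatty acid binding protein, was high in every tumor. Fabp5 stood at 1649, 901 and 1391 CPM in fl/fl tumor replicates 1, 2 and 3 and at 1198, 1125 and 867 CPM in the ΔK14 tumors. Fabp5 in skin without tumors was at 433, 48.7 and 33.5 CPM in fl/fl mock, 444 and 39.7 CPM in ΔK14 mock, 208, 196 and 179.6 CPM in fl/fl treated and 448, 349 and 481 CPM in ΔK14 treated libraries. Tumors of both genotypes lay above all treated libraries of their genotype, and replicate 1 of the fl/fl tumors was not set apart from the others. Fabp5 rose from treated skin to tumor in fl/fl (log2 fold change 2.73, SE 0.27, adjusted p = 0.00138) and in ΔK14 (1.23, SE 0.21, adjusted p = 0.00319). In treated skin all 3 ΔK14 libraries lay above all 3 fl/fl libraries, with a log2 fold change of 1.11 (SE 0.18, adjusted p = 0.423) that edgeR did not call and DESeq2 did. Acsl1, which activates long-chain fatty acids, had 34.1 to 47.2 CPM in fl/fl and 26.8 to 41.9 CPM in ΔK14 tumors. It was highest in mock libraries other than replicate 1, at 155 and 169 CPM in fl/fl and 176 CPM in ΔK14. Acsl5 had 90.3, 109 and 139 CPM in the fl/fl tumors and 91.7, 71.9 and 67.8 CPM in the ΔK14 tumors, and neither Acsl gene was called in the fits of all libraries.

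The genes of triglyceride synthesis, which join fatty acids to glycerol, differed less between tumors. Gpam, the first enzyme of the path, was low in the ΔK14 tumors. Gpam stood at 9.03, 35.6 and 31.1 CPM in fl/fl tumor replicates 1, 2 and 3 and at 19.9, 9.98 and 10.4 CPM in the ΔK14 tumors. Gpam in skin without tumors was at 22.6, 27.9 and 35.3 CPM in fl/fl mock, 23.01 and 24.9 CPM in ΔK14 mock, 41.7, 38.4 and 28.1 CPM in fl/fl treated and 27.3, 34.1 and 37.7 CPM in ΔK14 treated libraries. Fl/fl tumor replicate 1 was the lowest of all libraries. Gpam fell from treated skin to tumor in ΔK14 by 1.39 on the log2 scale (SE 0.31, adjusted p = 0.00868), against -0.50 (SE 0.43, adjusted p = 0.419) in fl/fl. Agpat2, which adds the second fatty acid, went the other way. Agpat2 stood at 14.05, 6.11 and 5.57 CPM in fl/fl tumor replicates 1, 2 and 3 and at 14.98, 9.08 and 15.4 CPM in the ΔK14 tumors. Agpat2 in skin without tumors was at 3.33, 8.45 and 7.25 CPM in fl/fl mock, 4.87 and 7.93 CPM in ΔK14 mock, 5.76, 7.89 and 3.92 CPM in fl/fl treated and 4.84, 4.83 and 4.396 CPM in ΔK14 treated libraries. It rose from treated skin to tumor in ΔK14, with a log2 fold change of 1.38 (SE 0.30, adjusted p = 0.00771), and fl/fl tumor replicate 1 lay in the range of the ΔK14 tumors. Dgat1 and Dgat2, which add the last fatty acid, had 14.05, 28.1 and 31.5 and 13.04, 23.5 and 28.8 CPM in the fl/fl tumors and 16.5 to 23.6 and 14.2 to 14.98 CPM in the ΔK14 tumors, with no call. Mogat2, a monoacylglycerol path enzyme of the gut, was at 0 in 15 libraries and at most 0.224 CPM in the others.

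Wax esters, a component of sebum that other tissues hardly make, need a fatty alcohol from an acyl-CoA reductase and a wax synthase. Far2, the reductase known from sebaceous glands, was high in 2 tumors only. Far2 stood at 23.6, 422 and 624 CPM in fl/fl tumor replicates 1, 2 and 3 and at 26.4, 29.8 and 26.8 CPM in the ΔK14 tumors. Far2 in skin without tumors was at 21.6, 44.2 and 31.7 CPM in fl/fl mock, 25.4 and 16.2 CPM in ΔK14 mock, 56.3, 37.7 and 29.8 CPM in fl/fl treated and 34.99, 66.7 and 41.1 CPM in ΔK14 treated libraries. Replicate 1 of the fl/fl tumors and the 3 ΔK14 tumors lay within the range of skin without tumors, and the other 2 fl/fl tumors far above all. Far2 rose from treated skin to tumor in fl/fl, with a log2 fold change of 3.10 (SE 0.93, adjusted p = 0.0444), and had -0.89 (SE 0.27, adjusted p = 0.0320) in ΔK14, a drop of less than 2-fold. Between ΔK14 and fl/fl tumors its log2 fold change was -3.84 (SE 0.93, adjusted p = 0.201), and -4.35 (SE 0.22) without fl/fl replicate 1. Far1, the broadly expressed reductase that serves ether lipids, was high in all tumors. Far1 stood at 210.2, 147 and 116 CPM in fl/fl tumor replicates 1, 2 and 3 and at 286, 201 and 248 CPM in the ΔK14 tumors. Far1 in skin without tumors was at 64.2, 70.9 and 69.04 CPM in fl/fl mock, 72.5 and 54.4 CPM in ΔK14 mock, 69.4, 66.4 and 81.5 CPM in fl/fl treated and 65.9, 98.4 and 80.98 CPM in ΔK14 treated libraries. Both genotypes' tumors lay above all treated libraries, and the 2 fl/fl replicates with the sebaceous genes were the lowest tumors. Far1 rose from treated skin to tumor in fl/fl (log2 fold change 1.08, SE 0.24, adjusted p = 0.0171) and in ΔK14 (1.48, SE 0.23, adjusted p = 0.00215), and against ΔK14 mock skin (1.85, SE 0.30, adjusted p = 0.0165).

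The wax synthases Awat1 and Awat2 had few counts outside 2 tumors. Awat1 stood at 0, 5.34 and 9.18 CPM in fl/fl tumor replicates 1, 2 and 3 and at 0, 0 and 0 CPM in the ΔK14 tumors. Awat1 in skin without tumors was at 0.111, 0 and 0 CPM in fl/fl mock, 0 and 0 CPM in ΔK14 mock, 0.869, 0 and 0.131 CPM in fl/fl treated and 0.179, 0.261 and 0.169 CPM in ΔK14 treated libraries. The ΔK14 tumors together held 0 counts, so that the fl/fl tumors, pooled, were at least 27.6-fold higher than the 3 counts that a count of 0 allows over that group. Awat2 stood at 0, 32.5 and 46.5 CPM in fl/fl tumor replicates 1, 2 and 3 and at 0.671, 0.363 and 0.1900 CPM in the ΔK14 tumors. Awat2 in skin without tumors was at 1.22, 2.16 and 1.84 CPM in fl/fl mock, 2.17 and 1.44 CPM in ΔK14 mock, 3.58, 3.51 and 2.48 CPM in fl/fl treated and 1.08, 2.09 and 1.69 CPM in ΔK14 treated libraries. Fl/fl tumor replicate 1 held no count and the ΔK14 tumors were the lowest of the other libraries. In treated skin Awat2 was lower in each ΔK14 library than in any fl/fl library, with a log2 fold change of -0.97 (SE 0.38, adjusted p = 0.897) that did not pass. Agps, an enzyme of ether lipid synthesis in peroxisomes, had 87.3, 49.8 and 35.1 CPM in the fl/fl and 111, 90.8 and 93.8 CPM in the ΔK14 tumors. All ΔK14 tumors lay above all fl/fl tumors, with a log2 fold change of 0.67 (SE 0.31, adjusted p = 0.387), and 1.098 (SE 0.22) without fl/fl replicate 1.

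Soat1, which esterifies cholesterol, stands alone in the role of sterol esters. Soat1 stood at 24.6, 548 and 1042 CPM in fl/fl tumor replicates 1, 2 and 3 and at 19.5, 56.99 and 46.7 CPM in the ΔK14 tumors. Soat1 in skin without tumors was at 67.2, 26.5 and 17.1 CPM in fl/fl mock, 37.6 and 14.4 CPM in ΔK14 mock, 71.4, 48.2 and 46.4 CPM in fl/fl treated and 47.4, 94.8 and 33.5 CPM in ΔK14 treated libraries. Its pattern was that of Far2 and Elovl6, with 2 tumors above all other libraries. Soat1 rose from treated skin to tumor in fl/fl with a log2 fold change of 3.27 (SE 1.02, adjusted p = 0.0498), close to the threshold, and in ΔK14 the value was -0.63 (SE 0.46, adjusted p = 0.311). Between ΔK14 and fl/fl tumors it was -3.87 (SE 1.07, adjusted p = 0.228), and -4.38 (SE 0.40) without fl/fl replicate 1. Lipid droplet proteins coat stored neutral lipid. Plin2, the coat protein of most cells, was high in tumors of both genotypes. Plin2 stood at 70.2, 411 and 491 CPM in fl/fl tumor replicates 1, 2 and 3 and at 75.8, 117 and 144 CPM in the ΔK14 tumors. Plin2 in skin without tumors was at 12.9, 48.7 and 36.2 CPM in fl/fl mock, 15.2 and 46.1 CPM in ΔK14 mock, 62.2, 66.9 and 32.6 CPM in fl/fl treated and 19.9, 50.1 and 52.9 CPM in ΔK14 treated libraries. Fl/fl tumor replicate 1 lay just below the ΔK14 tumors, and all 6 tumors lay above the treated libraries of their genotype. Plin2 rose from treated skin to tumor in fl/fl (log2 fold change 2.58, SE 0.65, adjusted p = 0.0257) and in ΔK14 (1.35, SE 0.37, adjusted p = 0.0212). Cidea, a droplet fusion protein of sebocytes and brown fat, was confined in tumors to the same 2 libraries. Cidea stood at 0.502, 32.98 and 34.1 CPM in fl/fl tumor replicates 1, 2 and 3 and at 0.447, 0.182 and 1.14 CPM in the ΔK14 tumors. Cidea in skin without tumors was at 0.111, 2.75 and 1.74 CPM in fl/fl mock, 0.541 and 0.361 CPM in ΔK14 mock, 5.32, 2.19 and 1.18 CPM in fl/fl treated and 0.538, 5.22 and 2.37 CPM in ΔK14 treated libraries. In fl/fl its log2 fold change from treated skin to tumor was 2.93 (SE 0.99, adjusted p = 0.0644), which did not pass. Plin5, a droplet protein of oxidative tissue, was at most 0.541 CPM in any library.

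The role of sebocyte regulators and markers holds genes of unlike function. Pparg, the nuclear receptor needed for sebocyte differentiation, was 1.003, 60.01 and 83.9 CPM in the fl/fl tumors and 2.24, 0 and 0.3800 CPM in the ΔK14 tumors. Pparg in skin without tumors was at 0.222, 7.27 and 5.51 CPM in fl/fl mock, 0.271 and 2.16 CPM in ΔK14 mock, 10.4, 6.798 and 4.58 CPM in fl/fl treated and 0.897, 9.66 and 5.41 CPM in ΔK14 treated libraries. The ΔK14 tumors and fl/fl tumor replicate 1 were at or below 2.24 CPM, and fl/fl mock replicates 2 and 3 at 7.27 and 5.51 CPM. Its log2 fold change between ΔK14 and fl/fl tumors was -6.02 (SE 1.38, adjusted p = 0.192), and -6.55 (SE 0.58) without fl/fl replicate 1. Mgst1, a microsomal glutathione transferase of sebocytes, separated the genotypes without overlap in tumors. Mgst1 stood at 114, 466 and 789 CPM in fl/fl tumor replicates 1, 2 and 3 and at 113, 74.8 and 103 CPM in the ΔK14 tumors. Mgst1 in skin without tumors was at 173, 50.5 and 29.6 CPM in fl/fl mock, 189 and 34.6 CPM in ΔK14 mock, 106, 110.1 and 115 CPM in fl/fl treated and 149, 126 and 107 CPM in ΔK14 treated libraries. The margin to fl/fl replicate 1 was narrow, and the log2 fold change was -2.38 (SE 0.60, adjusted p = 0.209). Mgst1 rose from treated skin to tumor in fl/fl (log2 fold change 2.03, SE 0.59, adjusted p = 0.0395) and had -0.49 (SE 0.22, adjusted p = 0.112) in ΔK14. Apoc1, an apolipoprotein, was also lower in every ΔK14 tumor than in any fl/fl tumor. Apoc1 stood at 108, 162 and 255 CPM in fl/fl tumor replicates 1, 2 and 3 and at 89.9, 64.98 and 65.5 CPM in the ΔK14 tumors. Apoc1 in skin without tumors was at 43.96, 124 and 103 CPM in fl/fl mock, 64.4 and 156 CPM in ΔK14 mock, 91.5, 145 and 78.2 CPM in fl/fl treated and 66.4, 99.1 and 134 CPM in ΔK14 treated libraries. Its log2 fold change was -1.39 (SE 0.34, adjusted p = 0.201), and -1.61 (SE 0.24) without fl/fl replicate 1.

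Prdm1, which encodes the transcriptional repressor BLIMP1 of sebaceous and terminally differentiating epidermal cells, rose in tumors of both genotypes. Prdm1 stood at 111, 121 and 84.2 CPM in fl/fl tumor replicates 1, 2 and 3 and at 133, 218 and 193 CPM in the ΔK14 tumors. Prdm1 in skin without tumors was at 35.9, 3.14 and 4.16 CPM in fl/fl mock, 25.4 and 7.57 CPM in ΔK14 mock, 17.8, 11.8 and 17.7 CPM in fl/fl treated and 30.3, 31.7 and 25.4 CPM in ΔK14 treated libraries. Every ΔK14 tumor lay above every fl/fl tumor, and all tumors lay above all other libraries. Prdm1 rose from treated skin to tumor in fl/fl (log2 fold change 2.69, SE 0.25, adjusted p = 0.00119) and in ΔK14 (2.53, SE 0.23, adjusted p = 2.98e-04), and against ΔK14 mock skin (3.34, SE 0.56, adjusted p = 0.0175). Between tumors its log2 fold change was 0.64 (SE 0.24, adjusted p = 0.300), and no replicate of the fl/fl tumors stood apart. Faah, which degrades the endocannabinoid anandamide, was near 0 in the ΔK14 tumors. Faah stood at 1.51, 20.00 and 16.4 CPM in fl/fl tumor replicates 1, 2 and 3 and at 0.447, 0 and 0.1900 CPM in the ΔK14 tumors. Faah in skin without tumors was at 8.32, 6.48 and 6.96 CPM in fl/fl mock, 10.8 and 12.3 CPM in ΔK14 mock, 19.3, 18.4 and 8.89 CPM in fl/fl treated and 5.92, 19.2 and 18.8 CPM in ΔK14 treated libraries. It was at most 1.51 CPM in fl/fl tumor replicate 1 and the ΔK14 tumors, and at least 5.92 CPM in every library of skin without tumors. Faah fell from treated skin to tumor in ΔK14 with a log2 fold change of -6.16 (SE 0.77, adjusted p = 0.00103). Its pooled level in ΔK14 treated skin was 77.2 times that in ΔK14 tumors, which rests on 291 and 3 counts (95% exact interval for counting error only, 26.2 to 377). In fl/fl the value was -0.24 (SE 0.64, adjusted p = 0.800). Mc5r, the melanocortin receptor of sebocytes, was at 0 counts in the ΔK14 tumors and at most 2.52 CPM in any library. Cyp4f39, a hydroxylase of ultra-long-chain fatty acids, was lower in fl/fl tumor replicates 2 and 3 than in the other tumors. Its level in these 2 lay within the range of skin without tumors. Cyp4f39 stood at 21.6, 11.8 and 9.18 CPM in fl/fl tumor replicates 1, 2 and 3 and at 15.4, 20.3 and 15.2 CPM in the ΔK14 tumors. Cyp4f39 in skin without tumors was at 6.33, 12.4 and 14.2 CPM in fl/fl mock, 2.44 and 20.5 CPM in ΔK14 mock, 9.67, 9.87 and 7.32 CPM in fl/fl treated and 5.74, 9.66 and 19.3 CPM in ΔK14 treated libraries. No comparison called it.

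Levels of different genes can be compared only per length. The length used joins all annotated exons of a gene, which can be longer than its mRNA, so the order is approximate. Per kilobase of annotated exon, Scd1 led the members in fl/fl tumor replicates 2 and 3, with 656 and 1243 CPM per kilobase. Fabp5 had 253 and 389.9, and Mgst1 had 232 and 391.7. In fl/fl tumor replicate 1 and the ΔK14 tumors Fabp5 led, with 462 CPM per kilobase in the former and 336, 315 and 243 in the latter. Scd1 had 40.1 CPM per kilobase in fl/fl tumor replicate 1.

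From treated skin to tumor in fl/fl, 35 members were tested. Called higher were 9 (Fasn, Elovl3, Fabp5, Far1, Far2, Soat1, Plin2, Prdm1 and Mgst1), where 7.5% of 15362 genes were, and 1 was called lower (Fads2), where 10.5% of genes were. Of the 35, 30 had a positive difference, and the median log2 fold change was 1.08 against -0.02 over all genes tested. All 3 tumors lay above all 3 treated libraries for 9 members (21.9% of genes) and below for 1 (24.0% of genes). With RLE scaling the split was 10 higher and 0 lower, and only Fads2 was no longer called. The count depended on single libraries. It was 2, 2 and 3 members without treated replicates 1, 2 and 3, 3 without tumor replicate 2 or 3, and 19 without tumor replicate 1 (17 higher and 2 lower, in a fit that called 10.4% of genes higher and 13.8% lower). Fabp5 and Prdm1 were called in all of these fits. Only the last has its share of all genes given here, and it leaves out the library known to differ. Over all 11 alternatives, Fasn, Elovl3, Far2 and Soat1 lost their call in 6, and Mgst1 and Fads2 in 7.

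From treated skin to tumor in ΔK14, 31 members were tested. Called higher were 7 (Elovl1, Fads3, Fabp5, Agpat2, Far1, Plin2 and Prdm1), where 10.5% of 15289 genes were. Called lower were 5 (Acacb, Elovl6, Scd1, Gpam and Faah), where 15.5% of genes were. Of the 31, 14 had a positive difference, with a median log2 fold change of -0.39 against -0.03 over all genes. All 3 tumors lay above all 3 treated libraries for 9 members (28.4% of genes) and below for 7 (23.8% of genes). Fabp5, Far1, Plin2 and Prdm1 were called higher in tumors of both genotypes, and of these Prdm1 alone kept its call in both under all 11 alternatives. Plin2 lost it in 6 alternatives in fl/fl and 3 in ΔK14, Far1 in 3 in fl/fl, and Fabp5 in 1 in ΔK14, the joint fit of all libraries. Left-out libraries moved the count to between 9 and 17 members, and the share of all genes called in those fits is not given here.

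**Figure D4:**
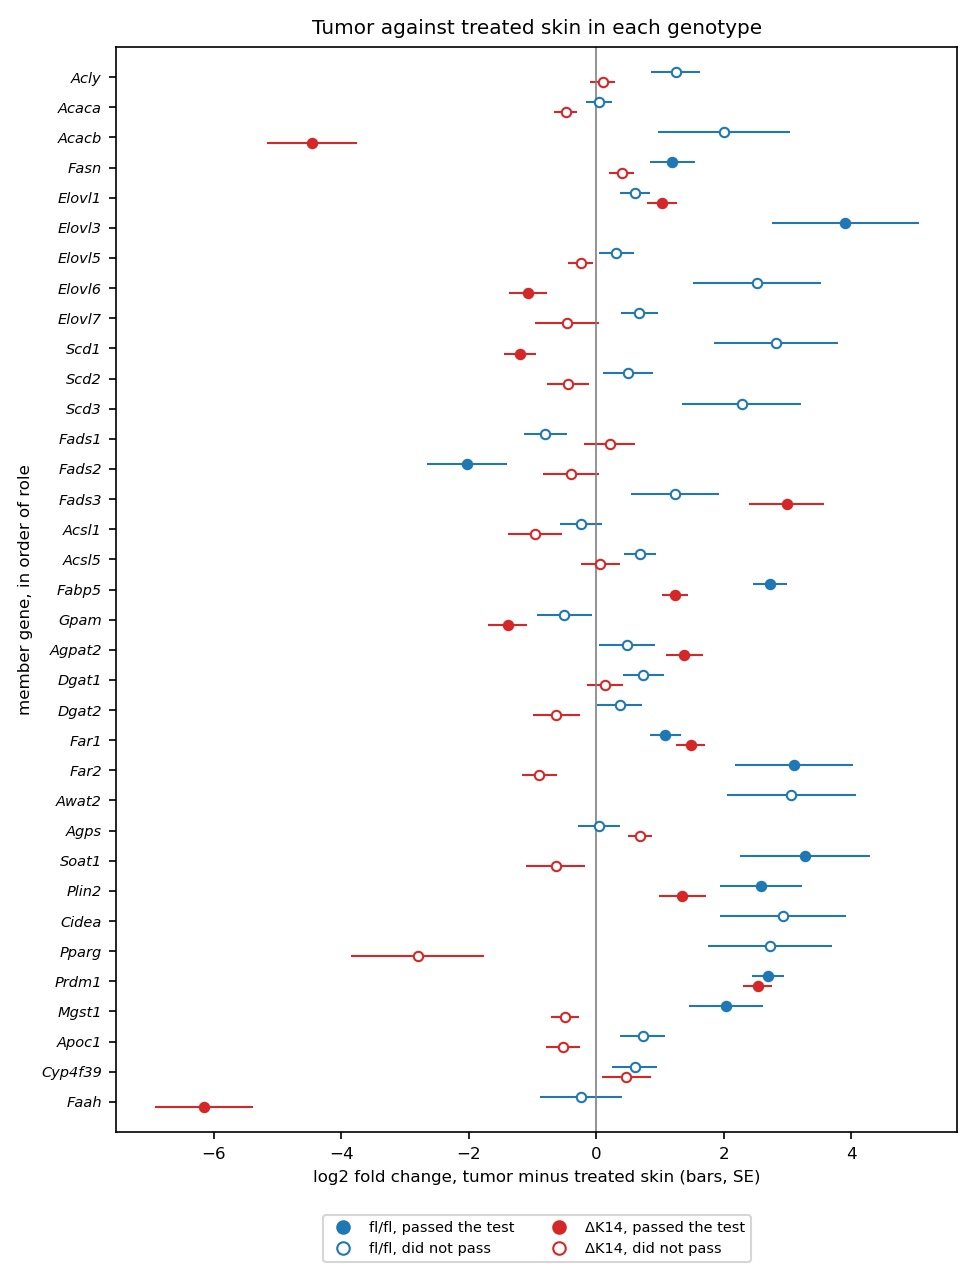
Fitted log2 fold change of tumor minus treated skin for each tested member, with bars for the SE (blue, fl/fl, 35 members; red, ΔK14, 31 members; filled, passed the test). Fabp5, Far1, Plin2 and Prdm1 are filled to the right in both genotypes, and Acacb, Elovl6, Scd1, Gpam and Faah are filled to the left in ΔK14.

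The interaction of genotype with the step from treated skin to tumor asks whether that step differed between genotypes. Of 36 tested members 0 were called by edgeR, where 0.0118% of 17017 genes were called higher and 0% lower. An unadjusted p below 0.05 was reached by 15 members and by 2243 of the 17017 genes. DESeq2 called 5 lower (Elovl3, Fabp5, Awat2, Mgst1 and Faah) and 0.675% of all genes lower. Faah had a log2 interaction of -5.89 (SE 1.23, adjusted p = 0.164) and Fabp5 of -1.48 (SE 0.33, adjusted p = 0.196). Without fl/fl tumor replicate 1, 15 members were called lower and 1 higher, in a fit that called 4.04% of genes lower and 3.49% higher. The library left out is again the one already known to differ, so these calls are a description and support nothing by themselves. The 15 were Acly, Acacb, Elovl3, Elovl6, Scd1, Scd3, Fabp5, Far2, Awat1, Awat2, Soat1, Cidea, Pparg, Mgst1 and Faah, and the 1 was Fads2.

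Against mock skin, the fl/fl tumors gave 0 calls among 34 tested members, where 2.22% of genes were called higher and 1.88% lower. An unadjusted p below 0.05 was reached by 18 members and by 4038 of 15394 genes. DESeq2 called 13 members higher and 5.66% of all genes higher. Without mock replicate 1, which carried hair follicle keratins such as Krt71, 13 members were called higher (9.45% of genes) and 1, Acsl1, lower (11.5% of genes). Without tumor replicate 1, again as a description, 9 members were called higher (2.71% of genes). In ΔK14, 3 of 31 members were called higher (Fads3, Far1 and Prdm1, 7.05% of genes) and 2 lower (Acacb and Faah, 7.22% of genes). Leaving out either ΔK14 mock library leaves 1 in that group, whose spread is then taken from the tumors, so calls from those fits are not given. Without any 1 of the ΔK14 tumors there was 1 call, Faah, in fits whose share of all genes is not given here.

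No member passed the test between mock and treated skin. From mock to treated skin, 0 of 35 members in fl/fl and 0 of 36 in ΔK14 were called by edgeR, where 0% of genes were called in either direction in both genotypes, and DESeq2 called 0 as well. At an unadjusted p below 0.05 there were 3 members in fl/fl (Elovl3, Awat2 and Faah, all higher in treated skin) and 2 in ΔK14 (Elovl3 and Far2, both higher). Over all genes there were 913 of 16601 in fl/fl and 763 of 15891 in ΔK14, shares near those of the members. Without fl/fl mock replicate 1, 9 members were called higher in treated skin (Scd2, Fads1, Fads2, Fads3, Fabp5, Soat1, Prdm1, Mgst1 and Faah, 7.97% of genes) and 2 lower (Elovl7 and Acsl1, 7.16% of genes). Between genotypes in mock skin, 0 of 33 members were called (0% of genes in either direction, 0 by DESeq2). At an unadjusted p below 0.05 were 0 members and 253 of 15920 genes. Between genotypes in treated skin, 0 of 36 members were called by edgeR (0% of genes higher, 0.00616% lower). An unadjusted p below 0.05 was reached by 3, Fabp5 and Prdm1 higher and Awat2 lower in ΔK14, and by 901 of 16232 genes. All ΔK14 treated libraries lay above all fl/fl treated libraries for 3 members (5.77% of genes) and below for 1 (5.93% of genes). DESeq2 called Fabp5 alone among the members, and 0.114% of all genes higher. For Prdm1 in treated skin the log2 fold change was 0.85 (SE 0.21, adjusted p = 0.816).

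Other genes of the same pathways were counted from further lists, which name the path around the members. In the fit of all tumors, 0 genes of any of these lists were called between genotypes. Without fl/fl tumor replicate 1, a fit in which 9.58% of all genes were called lower and 7.32% higher and which is again a description, genes that supply precursors and reducing power gave 4 calls lower in ΔK14 of 8 tested, with Me1, the malic enzyme that makes NADPH, at -2.10 (SE 0.23), Acss2 at -2.21 (SE 0.26) and Slc25a1, the citrate carrier, at -1.33 (SE 0.21) in log2 fold change. Of 9 other elongation and desaturation genes 4 were called lower, of which those with the smallest p were Tecr at -1.71 (SE 0.18), Hacd2 at -1.38 (SE 0.20) and Elovl4 at -2.07 (SE 0.30). Of 12 other acyl transfer and droplet genes 5 were called lower, with Cidec, a droplet protein that the adipocyte list also holds, at -6.18 (SE 0.90) and Fitm2 at -1.80 (SE 0.20). Lipolysis genes gave 2 lower and 1 higher of 5 tested: Mgll at -4.69 (SE 0.34), Lpl at -3.65 (SE 0.41) and Lipe at 1.37 (SE 0.28). Barrier lipid genes split into 1 lower, Slc27a4 at -2.64 (SE 0.20), and 2 higher, Cers3 at 2.32 (SE 0.27) and Ugcg at 1.46 (SE 0.32), of 7 tested. The regulators of lipogenesis gave 1 call lower of 11 tested, Ppara at -4.19 (SE 0.63). Srebf1, the sterol-regulated activator of fatty acid synthesis, was 63.2, 111 and 123 CPM in the fl/fl tumors and 70.9, 61.3 and 75.04 CPM in the ΔK14 tumors, and was not called.

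Among genes of the sebaceous duct and gland, Krt79 and Gata6 were low in the same tumors as the sebocyte markers. Krt79, a keratin of the sebaceous duct and infundibulum, was 11.5, 740.0 and 791 CPM in the fl/fl tumors and 23.3, 9.801 and 8.36 CPM in the ΔK14 tumors, against 187 to 1509 CPM in treated skin. Gata6, a duct transcription factor, was 0, 10.1 and 10.8 and 0.447, 0 and 0.1900 CPM in the same tumors. Without fl/fl replicate 1, again as a description, 4 of the 7 gland and duct genes were called lower in ΔK14 tumors, where 9.58% of genes were. Gata6 was among the 2 that were not tested with all libraries. From treated skin to tumor in ΔK14, 4 of the 7 were called lower (15.5% of genes) and 1 higher (10.5% of genes). In fl/fl 1 was called lower (10.5% of genes) and 2 higher (7.5% of genes).

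Markers of other cell types were summed in the same libraries. The defining adipocyte gene Adipoq was at most 0.179 CPM and Car3 at most 0.812 CPM in any library. Both were at 0 counts in fl/fl tumor replicates 2 and 3. Cidec of the same list was 3.36 and 9.51 CPM in these tumors and at most 0.361 CPM in any other library. Fabp4 (12.5 and 9.83 CPM) and Lipe (10.5 and 12.5 CPM) were also present in these tumors, and the remaining adipocyte genes were at most 1.99 CPM there. The sum of the 10 was 135 CPM in fl/fl tumor replicate 1, mostly Fabp4 (125 CPM), and 29.3 and 34.1 CPM in the other fl/fl tumors. The 10 leukocyte genes summed to 3.25 to 13.1 CPM over all libraries, with Ptprc at most 1.51 CPM. The 6 fibroblast genes summed to 377 to 1678 CPM in mock and treated skin and to 30.4 to 386 CPM in tumors. Endothelial genes summed to 8.62 to 39.7 CPM and melanocyte genes to 41.1 to 366 CPM in skin and 8.85 to 38.2 CPM in tumors. The sorted marker Epcam was present in every library, at 87.9 to 466 CPM.

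Of the epidermal keratinocyte genes, Krt5, Krt14 and Itga6 were lowest in the tumors in which the sebocyte markers were high. The 7 epidermal keratinocyte genes summed to 31917, 9298 and 10660.4 CPM in the fl/fl tumors and 25734 to 26229.6 CPM in the ΔK14 tumors. Krt5, a keratin of basal cells, was 12120.0, 2618 and 2807 CPM in the fl/fl and 9915, 9007 and 10083 CPM in the ΔK14 tumors. Fl/fl tumor replicate 1 lay above the ΔK14 tumors. Other genes of the list ran differently, with Krt10 highest in fl/fl replicate 3 (931 CPM) and Epcam highest in fl/fl replicate 2 (466 CPM) among the tumors. Without replicate 1, 3 of 7 keratinocyte genes (Krt5, Krt14 and Itga6) and 4 of 6 proliferation genes were called higher in ΔK14 tumors, where 7.32% of genes were. In that fit, again a description, Krt5 had 1.73 (SE 0.17) and Mki67 1.67 (SE 0.30) in log2 fold change. The 10 hair follicle genes summed to 673 to 2605 CPM in mock and treated skin and to 148 to 363 CPM in tumors. Of the 10 tested, 9 in fl/fl (10.5% of genes) and 8 in ΔK14 (15.5% of genes) were called lower in tumor than in treated skin. The part of these other cells in the levels of the members was not tested.

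**Figure D5:**
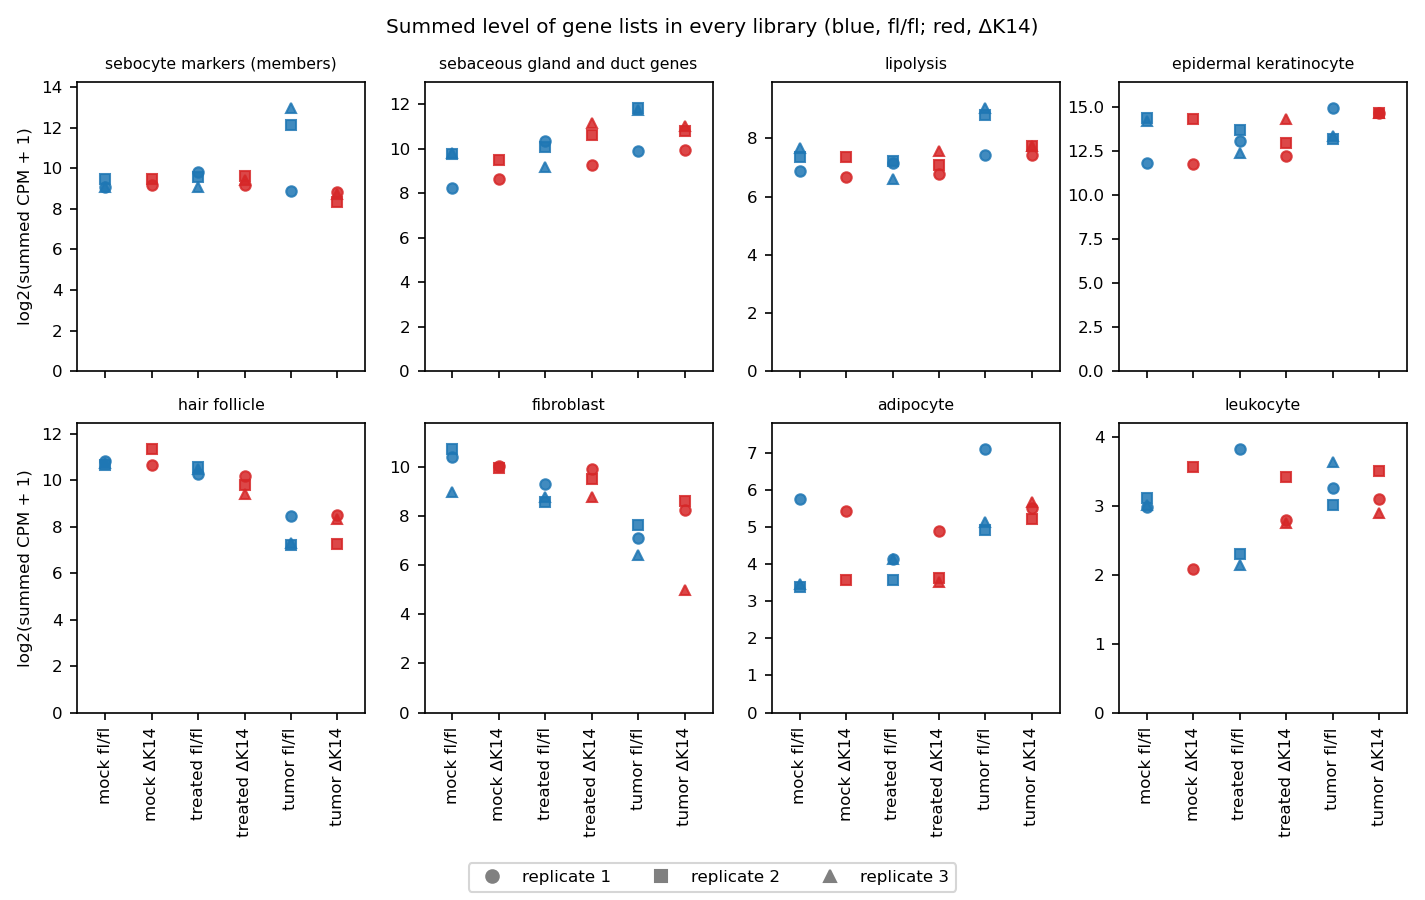
Summed level of 8 gene lists in every library, as log2(summed CPM + 1), by group on the x axis (blue, fl/fl; red, ΔK14; circle, square and triangle for replicates 1, 2 and 3). Among the tumors, sebocyte markers and duct genes are highest in fl/fl tumor replicates 2 and 3, the epidermal keratinocyte sum is lowest in these 2, and the leukocyte sum stays at or below 13.1 CPM everywhere.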

How the data were processed

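RNA was sequenced from sorted EpCAM+ CD45- CD140a- CD31- skin cells with the Ovation SoLo kit. The authors deposited 1 table of raw read counts per gene (52636 genes, 18 columns), and the submitters' notes name Trimmomatic 0.36, STAR 2.5.3, HTSeq 0.9.1, DESeq2 and mm10. How reads that match several genes were counted is not given in the sources used here. There were 0 columns outside the design.

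The deposited counts were tested with edgeR 4.0.16 (R 4.3.3), by the quasi-likelihood test on the libraries of the groups compared, after filterByExpr and TMM scaling. A gene was called at a Benjamini-Hochberg adjusted p below 0.05 over all genes tested and a change over 2-fold. The SE is the absolute log2 fold change over the square root of F. ΔK14 mock replicates 2 and 3 were identical and entered once. The fits were run on counts simulated from the treated libraries, with the same spread for all genes and no library set apart. That run does not cover a group such as the fl/fl tumors. Intervals and the floor of 3 counts cover counting error only.

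A member was given in every library where it was called in a comparison, where the genotypes did not overlap in tumors at an unadjusted p below 0.05, or where it was a sebocyte marker. From each further list at most the 3 genes with the smallest p were named. Krt71, Krt5 and other cell markers were named after their values were seen. The members and lists were chosen with earlier results of these data known. Alternatives were DESeq2 1.42.0, a joint fit of the 6 groups, scaling by RLE, omission of the low-count filter, the replicate number as a block, and leaving out each library in turn.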

Additional observations from a re-analysis of the deposited data

How the results depend on the processing

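The counts of called members depended on the setting, and the cause was not tested. Shares in brackets are of all genes tested in the same setting, in either direction. No share is set beside the ranges for left-out libraries, and the share changed with the library left out. Those ranges are therefore not a result about the members. Between genotypes in tumors, where edgeR called 0, DESeq2 gave 9 (2.79%), 1 fit of all libraries 7 (0.668%), no low-count filter 18 (4.27%), and leaving out 1 library 0 to 23. Between genotypes in treated skin, DESeq2 gave 1 (0.196%), no filter 1 (0.646%) and left-out libraries 0, and in mock skin left-out libraries gave 0. Tumor against treated skin in fl/fl (10 members) gave 13 with DESeq2 (17.6%) and 13 in 1 fit of all libraries (15.2%). It gave 20 with no filter (12.9%) and 2 to 19 with a library left out. In ΔK14 (12 members) that comparison gave 15 with DESeq2 (20.8%), 8 in 1 fit of all libraries (19.2%) and 18 with no filter (16.3%). Left-out libraries gave 9 to 17 there. Tumor against mock skin in fl/fl (0 members) gave 13 with DESeq2 (12.8%), 18 in 1 fit of all libraries (17.6%), 20 with no filter (7.64%) and 0 to 14 with a library left out. In ΔK14 (5 members) it gave 8 with DESeq2 (16.3%), 10 with no filter (13.1%) and 1 without any 1 of the ΔK14 tumors. Treated against mock skin gave 0 to 11 in fl/fl and 0 in ΔK14 with a library left out, and 1 in ΔK14 with no filter (0.654%). The interaction gave 5 with DESeq2 (1.22%), 18 with no filter (2.76%) and 0 to 16 with a library left out. With RLE scaling the sign of the difference turned for 2 members in tumor against mock skin in fl/fl and for 1 in ΔK14.

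With the replicate number as a block, tumor against treated skin in fl/fl gave 4 calls (11.9%) and tumor against mock skin in fl/fl gave 3 (1.59%). Genotype in mock skin gave 0 members with the block (0.691%), and treated against mock skin in ΔK14 gave 0 (0.271%). Without the block, 0% of genes were called in these 2 comparisons. Correlations of same-numbered libraries' deviations between genotypes ranged from -0.07 to 0.25 for tumors and from -0.55 to -0.12 for treated skin. They were 0.78 and 0.57 between genotypes in mock skin and 0.57 and 0.14 for treated against mock skin in ΔK14, each with 2 pairs. No comparison with 3 pairs had all of them over 0.1, and the labels name no shared animal, so the numbers were not taken to pair the samples.

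The 33 member values followed singly were those called with all libraries in the 3 comparisons of tumors with skin, and those of Fads1, Fads2, Fads3, Prdm1, Mgst1 and Apoc1 between genotypes in tumors. For these, settings that kept every library left 144 values on the same side of the threshold, moved 14 below it and 7 past it. Leaving out a library left 128 on the same side, moved 60 below it and 5 past it. None of the 33 changed sign.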
